A study of Caenorhabditis elegans with 2 samples.

Results

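The genes described here encode the machinery that starts transcription: subunits of the 3 nuclear RNA polymerases, the general factors of RNA polymerase II, the TBP and TAF proteins of TFIID, Mediator, and the snRNA-activating complex SNAPc. They were the 78 protein-coding genes, of 19973 on the nuclear chromosomes, named ama-1, tbp-1 or ttb-1 or carrying one of the gene-name stems rpb, rpc, rpoa, rpac, taf, mdt, gtf and snpc. What was mapped at them was PBRM-1, the polybromo subunit of the PBAF chromatin remodelling complex, by chromatin immunoprecipitation sequencing. There was 1 group of 2 biological replicates, both of whole young adult Caenorhabditis elegans of strain RW12226, aged 64.5 h and synchronised as starved L1 larvae after bleaching. In these worms the endogenous pbrm-1 gene carries a TY1, EGFP and 3xFLAG insertion made with CRISPR, and the precipitating antibody recognised GFP. A possible control experiment that the labels name is not analysed here. With no second genotype, stage or treatment, the comparison is between genes and between complexes. Whole animals were used, so more cells with PBRM-1 at a site and more PBRM-1 per cell cannot be told apart.

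RNA polymerase I makes the large ribosomal RNA, RNA polymerase II makes messenger RNA and most small nuclear RNA, and RNA polymerase III makes transfer RNA and other short RNAs. TFIID recognises core promoters through TBP and its TAF subunits, Mediator carries signals from sequence-specific activators to RNA polymerase II, and SNAPc binds upstream of small nuclear RNA genes. Remodellers of the SWI/SNF family slide or evict nucleosomes at promoters and enhancers, where these machines assemble. The genes below are considered as places where PBRM-1 was mapped, and their products are not considered as its partners. Effects of PBRM-1 on their expression were not examined.

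A gene was called bound when the summit of a PBRM-1 peak fell in its promoter window, which opened 1000 bp before and closed 200 bp after any annotated transcript start. The DNA around the summits of 5 of the 6 bound genes of highest signal is shown first, so that the sites behind the counts can be read. Each stretch reads 5′ to 3′ along the gene's own strand on the ce11 build and is centred on the summit, reaching 100 bp to each side. That of snpc-3.4 stops where its transcript begins. The bases are those of the RefSeq copy of the genome. Capitals mark matches, on either strand, to a TATA box written TATAAA, to an E box written CACGTG, to a GA repeat written GAGAGA, to a GC box written GGGCGG or, one base shifted, as GGCGGG, and to a run of 8 T. The coordinates are II:14059866-14060066 for rpb-11, III:4019911-4020036 for snpc-3.4, III:9629907-9630107 for rpac-19, II:5661096-5661296 for mdt-26 and IV:9147075-9147275 for rpb-12.
rpb-11: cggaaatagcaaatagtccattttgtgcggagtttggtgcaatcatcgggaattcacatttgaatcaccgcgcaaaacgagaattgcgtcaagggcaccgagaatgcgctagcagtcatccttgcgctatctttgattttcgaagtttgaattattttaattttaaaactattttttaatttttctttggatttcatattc
snpc-3.4: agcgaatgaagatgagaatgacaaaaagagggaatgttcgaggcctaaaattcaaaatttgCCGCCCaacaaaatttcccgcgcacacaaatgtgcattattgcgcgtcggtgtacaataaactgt
rpac-19: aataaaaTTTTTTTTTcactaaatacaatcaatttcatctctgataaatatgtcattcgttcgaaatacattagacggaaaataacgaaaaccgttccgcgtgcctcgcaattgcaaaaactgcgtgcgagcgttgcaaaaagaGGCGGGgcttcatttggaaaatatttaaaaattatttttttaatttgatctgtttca
mdt-26: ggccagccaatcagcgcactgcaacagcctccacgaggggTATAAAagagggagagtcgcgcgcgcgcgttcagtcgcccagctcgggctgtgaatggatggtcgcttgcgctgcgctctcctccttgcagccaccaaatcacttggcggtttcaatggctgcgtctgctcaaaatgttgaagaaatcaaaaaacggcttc
rpb-12: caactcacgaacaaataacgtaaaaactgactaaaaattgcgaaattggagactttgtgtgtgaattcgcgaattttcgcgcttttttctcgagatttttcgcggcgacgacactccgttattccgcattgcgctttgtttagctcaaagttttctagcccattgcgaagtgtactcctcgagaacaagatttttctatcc
None of the motifs searched was common to all 5 sites. The rpb-11 and rpb-12 stretches held none, and the mdt-26 one held a TATAAA before the transcript start. The stretch of snpc-3.4 held GGGCGG on the opposite strand (printed as CCGCCC), and that of rpac-19 held GGCGGG and a T run. The whole 201 bp window of snpc-3.4 also held a run of 8 T, which its shortened stretch does not show.

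PBRM-1 was found at 17 of the 78 genes (21.8%), against 9.87% of all protein-coding genes, in the list made from both replicates (the series list, 3243 peaks). In the list of replicate 1 alone (1370 peaks) 8 genes were bound (10.3%), against 4.63% of all genes. In that of replicate 2 (2173 peaks) 14 were bound (17.9%), against 7.63%. In both replicates' own lists 6 were bound, against 4.14% of all genes. For scale, in the series list proteasome subunit genes were bound in 10 of 33 cases and splicing factor genes in 16 of 40. No test of these shares was run. Genes are not replicates, and the depth of the libraries is unknown from peak lists.

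Bound genes were found in every complex but the general factors of RNA polymerase II. Mediator had 6 bound genes of 20 (30%), the RNA polymerases 5 of 22 (22.7%), TFIID 4 of 18 (22.2%) and SNAPc 2 of 7 (28.6%). Those general factors, TFIIA, TFIIB, TFIIE, TFIIF and TFIIH, had 0 of 11 in the series list and in each replicate's list. Over all genes the shares were 9.87%, 4.63% and 7.63%. A group of 11 genes may well hold no bound gene at such shares, so the 0 does not set these factors apart. With groups of this size a single gene moves a share by several percentage points, and differences between complexes were not tested. No gene with the stem gtf belonged to the RNA polymerase III factors.

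**Figure D1:**
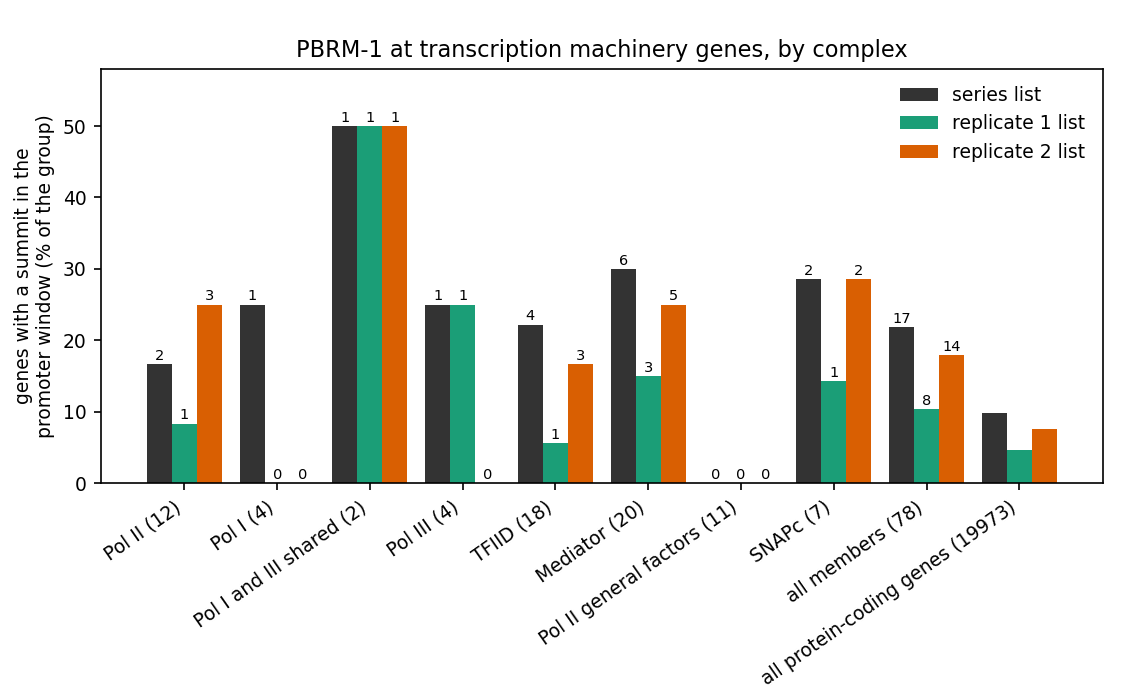
Share of genes with a PBRM-1 summit in the promoter window, in percent of each complex, for the series list and each replicate's own list. The number above a bar counts the bound genes and the number in brackets the genes of the group. The general factors stand at 0 of 11 in all 3 lists, and all protein-coding genes at 9.87%, 4.63% and 7.63%.

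The counts moved with the list and the window. The stricter conservative list gave 14 bound genes (8.99% of all genes), a window of 500 bp before to 100 bp after the start 13 (7.57%), and a window reaching 2000 bp upstream 20 (12.9%). Peaks with a q value at or below 0.05 gave 15 (8.52%), and peaks at or above the list's median signal gave 9 (6.01%). With any overlap of 1 bp between peak and window in place of the summit, 17 genes were bound (10.5%), and with the starts of protein-coding transcripts alone, 17 (9.85%). The general factors stayed at 0 of 11 in the conservative list and in both other windows, where 8.99%, 7.57% and 12.9% of all genes were bound.

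Among the polymerase genes, 3 of 16 genes for smaller subunits were bound, 2 of 3 for second-largest subunits and 0 of 3 for largest subunits. The share over all genes was 9.87%. Classes of 3 genes are too small to be compared, and rpoa-2, counted among the second-largest, was in neither replicate's own list. rpb-11, which encodes a subunit of the assembly core of RNA polymerase II, had the highest signal of the 17 genes, 226 in the series list, with its peak at II:14059899-14060037. Its overlapping peaks had signals of 60.9 in replicate 1, which did not reach that replicate's thresholded list, and 151 in replicate 2, which did. The peak signal is the authors' value on a scale that no header or label describes, so signals are read within 1 list. rpac-19 encodes the counterpart of RPB-11 that RNA polymerases I and III share. Its peak at III:9629939-9630053 had a signal of 182 in the series list, 88.5 in replicate 1 and 86.9 in replicate 2, and was in both replicates' own lists. Within their polymerases these proteins pair with the products of rpb-3 and rpac-40, and neither partner gene was bound. The strongest candidate peak below the threshold had a signal of 51.8 at rpb-3 and 16.4 at rpac-40.

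rpb-12, a subunit common to all nuclear polymerases, had a peak at IV:9147015-9147334 with a signal of 138, and of 67.6 and 70.3 in the replicates, both in their own lists. Of the second-largest subunits, rpc-2 of RNA polymerase III had a peak at III:5557275-5557594 (signal 77.7), called in replicate 1 (53.3) and not in replicate 2 (33.8). rpoa-2 of RNA polymerase I had the lowest signal of the 17, 65.8, at I:9287052-9287371, and it was in neither replicate's list (35.1 in replicate 1 and 28.7 in replicate 2). A weaker second summit (7.04) lay 874 bp before rpoa-2, in a coding exon of its neighbour prom-1. The gene of the second-largest RNA polymerase II subunit, rpb-2, was not bound and had a candidate signal of 30.3. The largest subunits, which hold part of the catalytic centre, were not bound. ama-1 of RNA polymerase II had a candidate peak with a signal of 47.8, rpoa-1 of RNA polymerase I one of 44.7, and rpc-1 of RNA polymerase III none in its window. rpb-7, part of the polymerase stalk, was bound in replicate 2 alone, with a signal of 49.5 at I:3032770-3033065, where the start of Y54E10BR.2 also lies in range.

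Mediator supplied 6 of the 17 bound genes, and 3 of the 6 found in both replicates' own lists. mdt-26, whose mammalian counterpart recruits elongation factors, had a 109 bp peak at II:5661100-5661208 with its summit 2 bp inside the gene's first coding exon. Its signal was 168 in the series list, 81.6 in replicate 1 and 80.4 in replicate 2. mdt-19, of the middle module in other species, had 160, 73.7 and 89.0. mdt-22, of the head module, had 116, 54.8 and 71.6 at II:10300969-10301288. All 3 were called in replicate 1 and in replicate 2.

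The other bound Mediator genes had weaker peaks. mdt-6, another head subunit gene, had 89.0 in the series list at V:7060385-7060704, 30.0 in replicate 1 and 59.4 in replicate 2, and was called in replicate 2. mdt-15, which in worms controls genes of fatty acid metabolism, had 72.5 at III:5833452-5833771 and was called in neither replicate (37.2 and 36.0). Its summit lay 96 bp past a transcript start, in an intron. mdt-1.2 on the X chromosome, one of the genes for the subunit that nuclear receptors contact in mammals, had 68.0 at X:17151138-17151457 and was called in replicate 2 (56.2), with no overlapping candidate in replicate 1. A weaker second summit of mdt-1.2 (13.3) lay 17 bp before its start. The caller's q value was 0.0721 at mdt-1.2 and 0.0976 at rpoa-2, above 0.05, and the other 15 bound genes stayed below it.

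The 4 bound TFIID genes were TAF genes, and tbp-1, the TBP gene, was not bound. All TFIID genes here but tbp-1 are TAF genes, so these counts do not set TAFs apart from TBP. taf-4, a scaffold subunit required widely for embryonic transcription in worms, had a peak at I:382404-382723 with a signal of 127. It was called in replicate 2 (84.4) and not in replicate 1 (42.9). The gene of its histone-fold partner, taf-12, had 74.0 at III:11870061-11870380, again called in replicate 2 (60.3) and not in replicate 1 (21.0), and a weaker second summit nearer the gene (53.5). taf-11.3 had 105 at III:10505917-10506236, with 59.2 in replicate 2, where it was called, and 53.5 in replicate 1, where it was not. taf-10 had 92.0 at V:4686722-4687041 and was the TFIID gene called in replicate 1 (47.8) and not in replicate 2 (39.1). Of the 18 TFIID genes, 0 were in both replicates' own lists, against 4.14% of all genes. At that share a group of 18 may well hold none. tbp-1 had a candidate signal of 12.5, and taf-1, which encodes the largest TAF, had no candidate in its window.

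In SNAPc, 2 of the 3 genes of the snpc-3 family were bound, and snpc-3.2 was not, with a candidate signal of 53.5. snpc-3.4 had an 80 bp peak at III:4019947-4020026, the narrowest of the 17, with its summit 26 bp before the transcript start. Its signal was 204 in the series list, 92.5 in replicate 1 and 105 in replicate 2, in both own lists. snpc-3.1 had 76.0 at IV:5486379-5486698, called in replicate 2 (61.4) and not in replicate 1 (32.2). The 201 bp around the snpc-3.1 summit matched 3 other places in the genome at 90% identity or more over at least 100 bp. Reads of the snpc-3.1 site may therefore be split with these copies. None of the other 16 bound genes had such a copy. snpc-4, the DNA-binding subunit gene that worms also need for piRNA transcription, was not bound and had a candidate signal of 61.0.

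**Figure D2:**
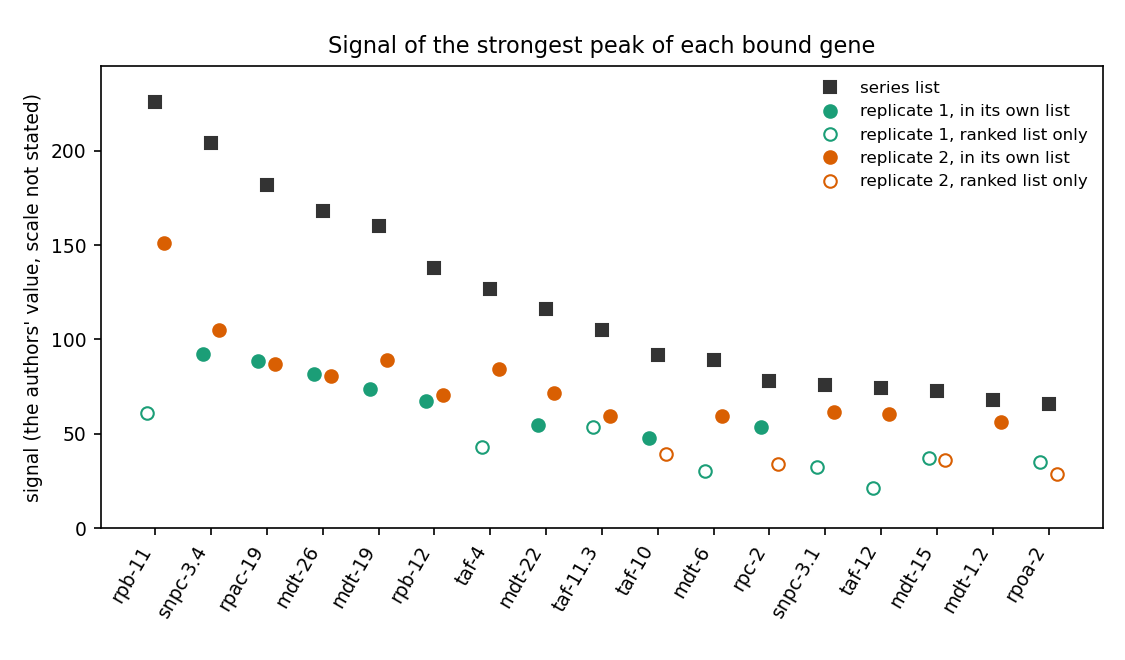
Signal of the strongest series-list peak of each bound gene (squares) and of the overlapping peak in each replicate's ranked list (circles, filled where the peak is in that replicate's own thresholded list). The vertical axis is the authors' signal, whose scale is not stated. Series signals run between 226 at rpb-11 and 65.8 at rpoa-2, and both circles are filled at 6 genes.

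Across the bound genes, support by replicates followed signal in part. The 6 genes in both own lists had series signals of 116 to 204, and those in neither, mdt-15 and rpoa-2, had 72.5 and 65.8. The 9 called in 1 replicate ran between 68.0 and 226, the highest being rpb-11. Of these 9, 7 were called in replicate 2 and 2 in replicate 1. Among all 1971 bound genes, 41.6% were in both lists, 31.3% in replicate 2 alone, 3.91% in replicate 1 alone and 23.2% in neither. The median signal of the 17 was 105, against 107 over all bound genes. The highest signal at any bound gene was 1562.

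Peaks below the threshold were counted next. The series-level ranked list holds 89851 candidates of any rank, and 66 of the 78 genes (84.6%) had at least 1 in the window, against 66% of all genes. Of the 61 unbound genes, 49 had a candidate (80.3%), against 62.2% of all unbound genes. The median signal of the strongest was 40.6, against 29.6 among the 11205 unbound genes of the genome that had one. Of the 49, 37 lay at or above that genome median. The highest were mdt-9 (69.6), taf-6.1 (65.6), taf-3 (64.0), taf-5 (63.0) and snpc-4 (61.0). Among the general factors, gtf-2E2 of TFIIE had 54.3 and ttb-1, the TFIIB gene, 52.9. Of the 12 without a candidate in this list, 6 were TFIID genes, namely taf-1, taf-7.1, taf-7.2, taf-11.1, taf-11.2 and taf-13. That is 33.3% of TFIID genes, against 34% of all genes without one. In the replicates' own ranked lists taf-11.1 did have candidates (27.7 in replicate 1 and 24.5 in replicate 2). So did mdt-21 (14.0) and rpc-11 (14.5) in replicate 1.

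The threshold acts on the irreproducible discovery rate (IDR), given as a score of which 830 is the lowest in the series list. Closest inside were mdt-15 with a score of 865 and rpoa-2 with 923, and closest outside were rpb-7 with 793 and taf-3 with 738. taf-3 was bound in the conservative list of the series. Score and signal did not rank genes alike: mdt-9, with a signal above those of mdt-1.2 and rpoa-2, scored 268.

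**Figure D3:**
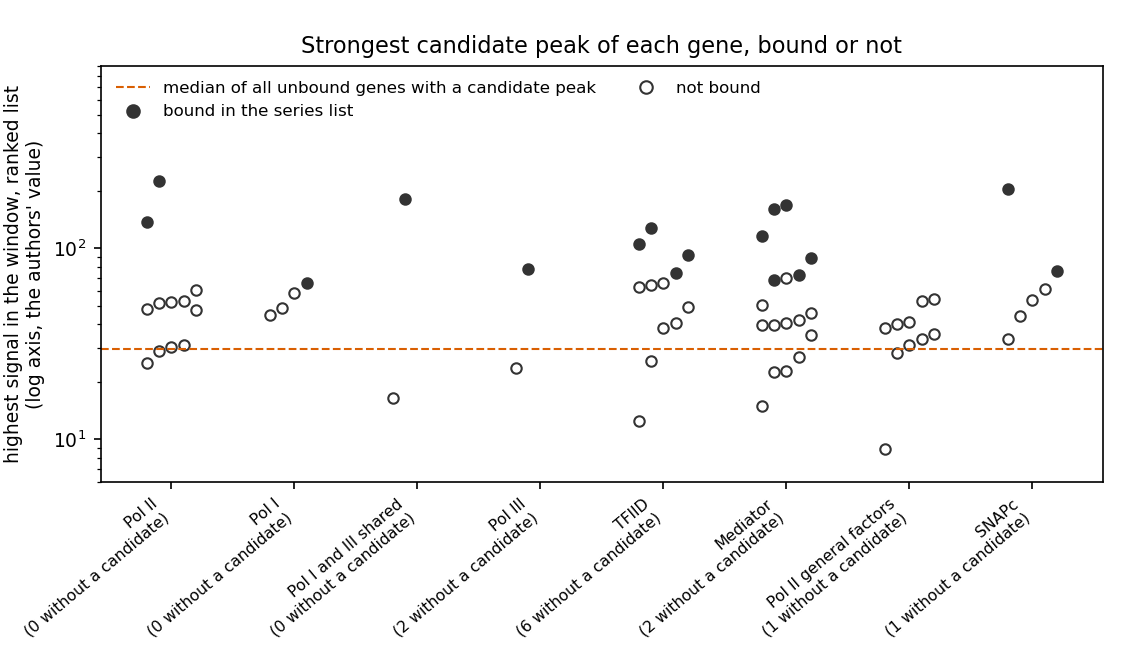
Highest signal of any candidate peak in the promoter window, from the series-level ranked list, for each gene by complex (log axis, the authors' value). Filled points are bound genes and open points unbound ones, and the dashed line is the median of 29.6 over all unbound protein-coding genes with a candidate. The 10 general factor genes with a candidate are open points between 8.86 and 54.3.

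Many of these peaks were shared with a neighbouring gene. At 12 of the 17 genes (70.6%) the summit also fell in the promoter window of another protein-coding gene, against 47.3% of all bound genes. When each summit was given to the nearest transcript start alone, 10 of the 78 genes remained bound (12.8%), against 7.5% of all genes. The neighbour lay nearer at mdt-19, where the summit was 224 bp before apb-1, an adaptor protein gene, and 795 bp before mdt-19. The same held at rpoa-2, whose stronger summit was 231 bp before prom-1, a gene of meiotic chromosome pairing, and 636 bp before rpoa-2. mdt-6 lay 921 bp away from a summit that was 7 bp before the nearest transcript start of Y57E12AL.1, within an annotated 5′ UTR of that gene. The same summit was 75 bp before the start of Y57E12AL.6, which lies on the strand of mdt-6. At mdt-22 (87 bp) the start of clpp-1, a mitochondrial protease gene, was nearer at 49 bp, and at snpc-3.1 (281 bp) that of puf-7, a Pumilio-family gene, at 174 bp. At rpb-12 the distances were close to equal, 306 bp to rpb-12 and 293 bp to aly-2, an mRNA export factor gene. The summit counted for taf-11.3, 827 bp upstream of it, also lay 981 bp before sly-1, and its nearest start was that of urm-1, whose window does not reach it.

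At 5 genes the machinery gene was the nearest. rpac-19 (122 bp) shared its summit with tbg-1, the gamma-tubulin gene, on the same strand and 853 bp away. rpb-11 (119 bp) shared with W01G7.4, 773 bp away on the same strand. taf-4 (262 bp) shared with pqn-59 at 662 bp, mdt-26 (2 bp) with ift-43 at 410 bp, and mdt-15 (96 bp) with R12B2.13 at 136 bp. snpc-3.4, rpc-2, taf-10, taf-12 and mdt-1.2 shared with none.

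The median summit position relative to the start was -224 bp for the 17 genes, against -248 bp for all bound genes (negative is upstream), and 11 of 17 were within 300 bp (64.7%, against 57.4%). The 5 summits farther than 500 bp upstream were those of taf-12, mdt-6, taf-11.3, mdt-19 and rpoa-2, and 4 of these 5 also lay in the window of another gene. The upstream neighbour of a bound gene, at any distance, stood on the opposite strand in 11 of 17 cases (64.7%). This compares with 20 of 61 unbound genes of the machinery (32.8%), 59.8% of all bound genes and 46.2% of all genes. Such a neighbour within 1000 bp was found in 6 of 17 cases (35.3%). That share was 18% for unbound genes of the machinery, 38% for all bound genes and 18.1% for all genes. No bound summit had a small RNA or other noncoding RNA gene of the classes searched within 500 bp.

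**Figure D4:**
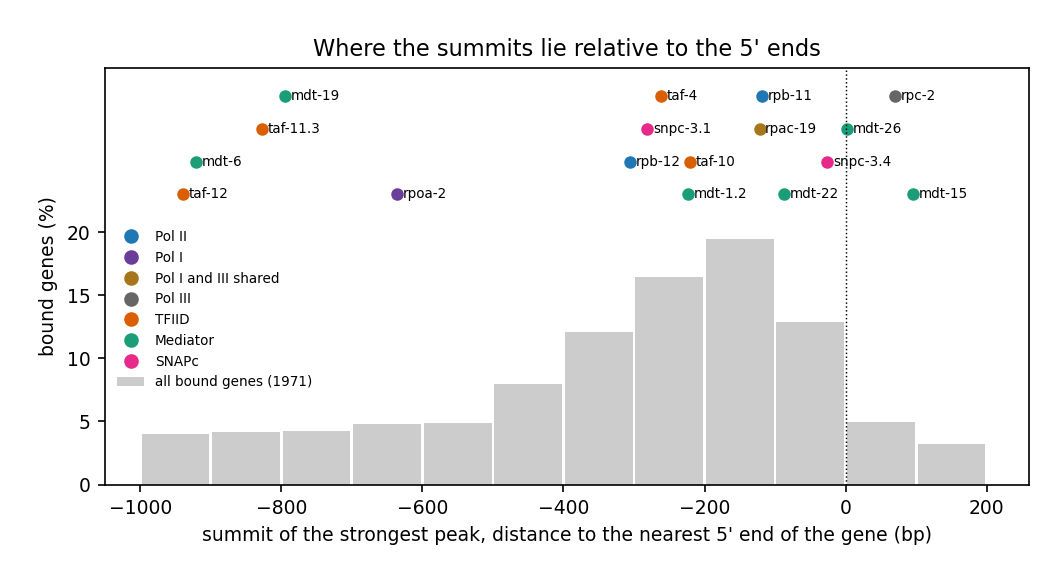
Distance of the strongest summit to the gene's nearest transcript start, in bp with upstream negative. Points are the 17 bound genes coloured by complex (their height only separates the labels), and grey bars give the percentage of all 1971 bound genes per 100 bp. Most points lie between 310 bp upstream and 100 bp downstream, and 5 lie more than 500 bp upstream.

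The 17 summit windows of 201 bp had a median GC content of 40.3%, against 42.8% over 1694 promoter summits. Over windows of the same length that end at every gene's outermost start, the median was 32.8%. Those windows are not centred on summits, so they differ in position from the summit windows. Among the 17, the highest was 57.2% at mdt-26 and the lowest 31.8% at snpc-3.1. On both strands TATAAA occurred in 3 windows (12.2% of promoter summits), GAGAGA in 3 (29.3%), GGGCGG in 2 (11%), GGCGGG in 2 (11.4%), a run of 8 T in 3 (12.4%) and CACGTG in 0 (5.79%). GGGCGG and GGCGGG can overlap. The absence of a match says only that these letters are not in the window.

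Genes of the same pathway outside the naming rule were counted too. Of 41 annotated genes for the rest of Mediator, TFIIH, elongation, Integrator and TBP-related factors, 10 were bound (24.4%), against 9.87% of all genes. In replicate 1, 2 of the 41 were bound, close to the 4.63% of all genes, and in replicate 2, 7 of the 41, against 7.63%. ints-4, of the Integrator complex that cuts small nuclear RNA precursors, had the highest signal of these genes, 366 at I:13663260-13663488, and was called in both replicates. pafo-1, of the PAF1 elongation complex, had 236 at V:11521471-11521790 and was also called in both. Elongation genes were bound in 5 of 14 cases, among them cdk-9 (72.6), the kinase of P-TEFb, and cit-1.1 and cit-1.2, which encode its cyclin partners. The last 2 genes share 1 peak of 68.0, which was called in neither replicate and is counted for both genes. cdk-9 shares its peak with hxk-2. rtfo-1 had 92.5 and shares its peak with K09G1.1. Of 9 Mediator genes under other names, rgr-1 (101, shared with gpr-2) and dpy-22 (76.0), the worm genes of MED14 and MED12, were bound. Of 11 Integrator genes 3 were bound, with ints-8 (64.3) and ints-9 (56.8, shared with snu-66) beside ints-4. The TFIIH helicase and kinase genes, 5 in all, were unbound like the gtf genes, as were tlf-1 and brf-1. At the 9.87% share of all genes, groups this small may well hold no bound gene.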

How the data were processed

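PBRM-1 chromatin immunoprecipitation sequencing was analysed from 7 peak lists on ce11, per the deposited notes: thresholded and ranked lists of each replicate and of both together, and a conservative list. The aligner, the caller and their settings are not given here. Each peak has a signal of unstated scaling, a score (scaled IDR reaching 1000) and a −log10 q value, all deposited by the authors. Depth is unknown, so no interval is given.

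Summits were placed with Ensembl release 115 transcripts (WBcel235, the same assembly as ce11); 0 peaks passed a chromosome end. Sequence came from RefSeq's copy (1 summit sequence is not reported here), and copies of summit windows were searched with BLAST+ 2.17.0. Python 3.11.15, numpy 2.4.6 and matplotlib 3.10.9 were used, and window assignment and motif search were tested on simulated data. The named genes are all bound genes, those bound in another list, the largest subunits, tbp-1 and ttb-1, and the 5 unbound genes of highest signal. gtf-2E2, rpb-2, rpb-3, rpac-40, snpc-3.2, urm-1 and the unbound genes without a candidate were named after their values were seen. The genes and lists were chosen with earlier results of these data known. No test was run. Alternatives changed the list, replicate, window, assignment, filter or overlap.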

Additional observations from a re-analysis of the deposited data

How the results depend on the processing

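Of 40 counts recomputed for the whole set, the polymerases, TFIID and Mediator under 10 alternatives, 29 stayed within 1.5 times the reported count and 11 did not. Leaving out 1 replicate gave 8 to 14 bound genes in all, 3 to 4 polymerase genes, 1 to 3 TFIID genes and 3 to 5 Mediator genes, the lower value being that of replicate 1 alone in each case. With nearest starts only, 10 genes remained in all, 3 of the polymerases and 3 of Mediator. Among peaks at or above the median signal, 9 remained in all, 3 of the polymerases, 2 of TFIID and 3 of Mediator. These settings also lower the count over all genes. With starts of protein-coding transcripts only, chosen after seeing the data, all 4 counts were equal to those reported. No paired analysis was possible because there is 1 group. Peak lists carry no depth, so an unbound gene was not detected at this threshold and may still carry PBRM-1.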

Other observations

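Several machinery genes lie behind another gene on the same strand. This grouping was made after seeing the data. For 31 of the 78 genes (39.7%), the nearest upstream neighbour lay on the same strand within 500 bp of the gene's start (overlaps up to that length included), against 19.4% of all protein-coding genes. The share was 13 of 20 for Mediator genes, 9 of 22 for polymerase genes, 5 of 18 for TFIID genes, 4 of 11 for the general factors and 0 of 7 for SNAPc genes. The files and annotation used here do not mark operons, so shared transcription of these runs was not tested.

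Of these 31 genes, 4 were bound in their own window (12.9%, against 9.85% of all genes so placed), and the first gene of the run was bound for 9 (29%, against 18.9%). For 7 of the 9 (77.8%) the machinery gene itself was unbound, against 79.1% of all genes whose first gene was bound. mdt-11, a Mediator head gene in other species, lies 2585 bp behind the start of wip-1, which had a peak with a signal of 565 at III:5018200-5018441, called in both replicates. mdt-8, of the same module, lies 663 bp behind Y62F5A.12, whose peak at II:11534912-11535119 had 363 and was called in both. rpb-5, a subunit common to the polymerases, lies 2898 bp behind syp-4, a synaptonemal complex gene, with 315 at I:6847227-6847446 in both. gtf-2F2 of TFIIF lies behind Y39B6A.37 (178) and rpac-40 behind algn-5 (139), both called in both replicates. rpb-9 lies behind Y97E10AR.6 (111, called in replicate 2) and taf-9 behind mlc-5 (71.9, called in neither). For mdt-6, behind Y57E12AL.6, the peak is the one already counted in the window of mdt-6. rpc-2 had its own peak apart from that of its first gene, hach-1 (148).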
